A study of Homo sapiens with 2 samples.

Results

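Cathepsins are a named set of proteases, most of them resident in the lysosome. The 10 cathepsin genes described here are CTSS, CTSL, CTSO, CTSB, CTSC, CTSZ, CTSH, CTSK, CTSD and CTSA, taken by symbol from the 33538 genes of the deposited count matrices. They were measured by single-cell RNA sequencing in A375, a human melanoma cell line. The A375 CTL-tolerant persister cells, called CTL persister cells here, were those left after 15 days together with T lymphocytes that kill cells presenting NY-ESO-1 (NY-ESO-1 CTLs), an antigen of testis and many tumours. The medium of the coculture held 7.5 ng/mL recombinant IL-2, and CTLs were added anew every 3 days. The A375 parental cells were untreated, and the labels do not say whether they received IL-2. Each group is 1 library of 1 cell line, so no difference between the groups has a replicate check and no test is given. All intervals are exact 95% intervals that cover counting error only. The members were picked with the difference between these libraries in view, so their values in both libraries are a description, and nothing is supported with them.

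Cathepsins are made as inactive precursors, carried to the lysosome largely by mannose 6-phosphate receptors, and matured there at acidic pH. Cysteine cathepsins share a papain-like fold and cut with an active-site cysteine, cathepsin D is an aspartic protease, and cathepsin A is a serine carboxypeptidase. Cystatins are natural inhibitors of the cysteine cathepsins. Cathepsin S stands apart from most of the family because it stays active at neutral pH and because antigen-presenting cells use it to trim the invariant chain, the CD74 product, from MHC class II molecules. Interferon-gamma raises CTSS in many cell types, and the same cytokine raises MHC class II through the transactivator CIITA.

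CTSS was seen in most CTL persister cells and was scarce in the parental library. The stretch around the active-site cysteine was compared base by base with that of CTSS. It is printed here from the reference transcripts of GENCODE release 29, with the cysteine codon in capitals. It is coding sequence, written 5′ to 3′ on the strand of the gene, and 36 bases long in each gene.
CTSS: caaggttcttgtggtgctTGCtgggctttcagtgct
CTSL: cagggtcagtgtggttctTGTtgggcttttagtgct
CTSK: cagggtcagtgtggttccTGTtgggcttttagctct
CTSH: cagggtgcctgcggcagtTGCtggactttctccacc
CTSO: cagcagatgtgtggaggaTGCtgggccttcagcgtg
CTSC: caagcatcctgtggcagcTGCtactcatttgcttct
CTSZ: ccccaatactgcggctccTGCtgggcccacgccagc
Over these 36 bases CTSL had 29 bases the same as CTSS, CTSK 26, CTSH 23, CTSO 22, CTSC 21 and CTSZ 16. CTSB, a cysteine protease with the same kind of site, is described by its counts alone. No such stretch was found in CTSD or CTSA. The longest identical run between transcripts of CTSS and any other cathepsin was 21 bases, shared with CTSL and with CTSV, and the longest between any pair of the 15 cathepsin transcripts was 40 bases, between CTSL and CTSV.

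The comparison of the libraries used 6605 CTL persister cells with 79546026 UMIs and 10630 parental cells with 88110998 UMIs, where a UMI count is a number of distinct molecules. Values are UMIs per 1000000 UMIs (CPM), and 3 UMIs correspond to 0.0377 CPM in the CTL persister library and 0.0340 CPM in the parental library. The median cell had 11284 UMIs in the CTL persister library and 7590 UMIs in the parental library, with 7.53% and 5.92% mitochondrially encoded UMIs. The melanoma list summed to 2714 CPM in the CTL persister library and 2301 CPM in the parental library, with SOX10 at 179 CPM and 99.6 CPM, while the pigment genes MLANA, PMEL and TYR were near 0 in both. Most of that sum came from MIA and SERPINE2, which differed in opposite directions. MIA had 1064 CPM in the CTL persister library and 168 CPM in the parental library, and SERPINE2 had 1160 CPM and 1785 CPM. A total of 38 barcode sequences occurred in both libraries.

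CTSS, the gene of cathepsin S, gave 20545 UMIs in CTL persister cells and 44 UMIs in parental cells. That is 258.3 CPM (254.8 to 261.8) in the CTL persister library, against 0.499 CPM (0.363 to 0.670) in the parental library, a ratio of 517 (385 to 712). The parental count was low but above 3 UMIs, so CTSS was scarce there and not wholly absent. CTSS lies on the minus strand at chr1:150730196-150765957 (GRCh38) and overlaps no other annotated gene.

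CTSL, the gene of the lysosomal endopeptidase cathepsin L, had 199.7 CPM (196.6 to 202.9) in CTL persister cells and 73.8 CPM (72.0 to 75.6) in parental cells, 2.71-fold higher (2.63 to 2.79). In mice cathepsin L trims the invariant chain in cortical thymic epithelium, as cathepsin S does in antigen-presenting cells. CTSO, a little-studied cysteine cathepsin, had 366 UMIs or 4.60 CPM in CTL persister cells and 42 UMIs or 0.477 CPM in parental cells, a ratio of 9.65. The intervals of these levels were 4.14 to 5.10 CPM in CTL persister cells and 0.344 to 0.644 CPM in parental cells. CTSO stayed under 5 CPM in both libraries, which was the level required before a gene entered the counts of changed genes.

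CTSB, whose enzyme acts both inside chains and on their carboxyl ends, had 48.7 CPM in CTL persister cells and 37.8 CPM in parental cells, a ratio of 1.29 (1.23 to 1.35). CTSD, the main aspartic protease of lysosomes, had 60.2 CPM in CTL persister cells and 48.2 CPM in parental cells, a ratio of 1.25 (1.20 to 1.30). CTSC, whose enzyme takes dipeptides off amino ends and activates the granzymes of T cells, had 337.5 CPM in CTL persister cells and 316.6 CPM in parental cells, a ratio of 1.07 (1.05 to 1.08). These 3 members were close to level between libraries, with differences that exceed counting error alone. CTSA, whose product also protects lysosomal β-galactosidase and neuraminidase, had 41.0 CPM in CTL persister cells and 43.2 CPM in parental cells. Its ratio of 0.949 (0.906 to 0.995) became 1.03 with TMM scaling, so CTSA has no settled direction. CTSB, CTSD, CTSA and CTSK overlap other annotated genes, whose reads could have been added to theirs or taken from them.

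CTSZ, a carboxypeptidase also called cathepsin X, had 97.6 CPM (95.5 to 99.8) in CTL persister cells and 192.6 CPM (189.7 to 195.5) in parental cells, a ratio of 0.507 (0.493 to 0.521). CTSH, an aminopeptidase, had 2.92 CPM from 232 UMIs in CTL persister cells and 7.04 CPM from 620 UMIs in parental cells, a ratio of 0.414 (0.355 to 0.483). CTSK, the collagen-degrading cathepsin of osteoclasts, had 0.830 CPM from 66 UMIs in CTL persister cells and 2.61 CPM from 230 UMIs in parental cells, a ratio of 0.318 (0.238 to 0.420). The exopeptidases CTSZ and CTSH and the neighbouring gene CTSK thus ran the other way from CTSS.

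Of the 10 members, 8 reached 5 CPM in either library. Among these 8, CTSS and CTSL passed the 2-fold line upward in CTL persister cells, CTSH passed it downward, and 5 lay between. Over all 9938 genes of that level, 10.1% passed it upward and 10.8% downward, and nothing is read from this beside members chosen on the same contrast. With TMM scaling 1151 genes passed upward and 808 downward, against 1001 and 1070 as counted here, and the members past the line were the same 3. CTSZ was just outside the 2-fold line, with parental cells 1.97-fold higher than CTL persister cells, and under the stricter cell filter it passed that line at 0.498. The median log2 difference, on the log2(CPM + 1) scale, was 0.20 over the 8 members and −0.15 over all 9938 genes. The 10 members together took 1051 CPM in CTL persister cells and 723 CPM in parental cells, and without CTSS the other 9 took 793.1 CPM and 722.4 CPM, a ratio of 1.10 (1.09 to 1.11). CTSS therefore made up most of the difference in the summed cathepsin UMIs.

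**Figure D1:**
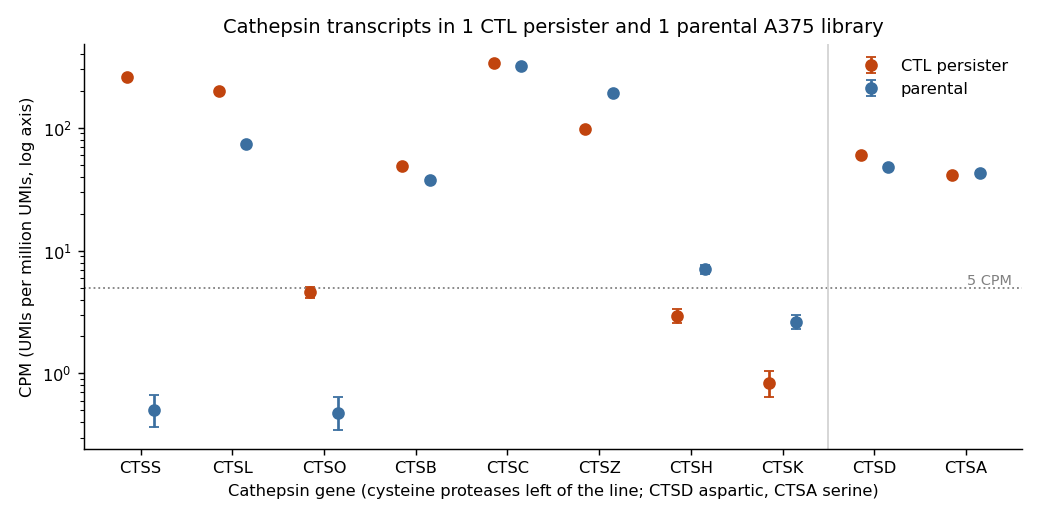
Level of each of the 10 cathepsin genes in CPM on a log axis, with the CTL persister library left of the parental library for every gene, and bars for exact 95% Poisson intervals. CTSS stands at 258.3 CPM in the CTL persister library and 0.499 CPM in the parental library, while CTSC, CTSB, CTSD and CTSA nearly coincide between libraries.

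The 5 cathepsin genes that were not among the 10 were all low. CTSF, a cysteine cathepsin, had 3.33 CPM in CTL persister cells and 5.72 CPM in parental cells. CTSV, the closest human relative of CTSL, had 20 UMIs in CTL persister cells and 114 UMIs in parental cells. CTSE, an aspartic protease, had 16 UMIs and 29 UMIs, and CTSG, a serine protease of neutrophil granules, had 0 UMIs in both libraries. CTSW, expressed in T and natural killer cells, had 147 UMIs in CTL persister cells and 80 UMIs in parental cells. CTSS was the only one of the 15 cathepsin genes with a level above 5 CPM in one library and under 1 CPM in the other. CTSO came near to this, with 4.60 CPM (4.14 to 5.10) in CTL persister cells and 0.477 CPM in parental cells.

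The abundant cystatins differed by less than 2-fold between libraries. CST3, the secreted cystatin C, had 384.8 CPM in CTL persister cells and 261.6 CPM in parental cells, 1.47-fold higher. CSTB, the cytosolic cystatin B, had 217.5 CPM in CTL persister cells and 243.0 CPM in parental cells, a ratio of 0.895. CSTA, the cytosolic cystatin A of epithelia, had 71 UMIs in CTL persister cells and 2 UMIs in parental cells, 39.3-fold with a 95% interval from 10.5 to 331. Only CST3 and CSTB of the 12 inhibitors reached 5 CPM, and neither differed by 2-fold.

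Most measured lysosomal genes outside the cathepsins were within 2-fold between libraries, as were 7867 of all 9938 genes measured. Of 27 measured lysosomal hydrolases and activators, 5 were past 2-fold upward in CTL persister cells, 1 was past it downward, and the median log2 difference was −0.03 against −0.15 over all genes measured. Over all 9938 genes measured, 10.1% were past 2-fold upward and 10.8% downward, and these shares stand beside the list counts below as well. DNASE2, the lysosomal DNase, had 32.7 CPM in CTL persister cells and 11.1 CPM in parental cells, 2.95-fold higher. LGMN, the asparaginyl endopeptidase legumain that matures several cathepsins and cuts the invariant chain, had 13.1 CPM in CTL persister cells and 5.42 CPM in parental cells, 2.41-fold higher. GLA, the α-galactosidase, had 5.18 CPM in CTL persister cells and 13.5 CPM in parental cells, a ratio of 0.383.

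Of 17 measured genes of the lysosomal membrane and proton pump, 1 was past 2-fold upward and 0 downward. The 1 was NPC1, the cholesterol exporter, with 15.2 CPM in CTL persister cells and 6.42 CPM in parental cells. The tetraspanin CD63 had 1416 CPM in CTL persister cells and 853 CPM in parental cells, and the calcium channel gene MCOLN1 had 5.29 CPM and 9.61 CPM. Of 9 measured genes of lysosomal sorting, 0 were past 2-fold upward and 1 downward, SORT1, with 3.00 CPM in CTL persister cells and 7.16 CPM in parental cells. M6PR, a mannose 6-phosphate receptor, had 83.9 CPM in CTL persister cells and 131 CPM in parental cells. None of the 5 measured lysosome regulators differed by 2-fold, and the nearest to it were TFE3, with 31.1 CPM in CTL persister cells and 15.7 CPM in parental cells, and MITF, with 6.99 CPM and 13.8 CPM.

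The MHC class II list, which holds the known substrate partner of cathepsin S, was higher in CTL persister cells. Of its 16 measured genes 12 were past 2-fold upward and 0 downward, with a median log2 difference of 1.44. CD74, the invariant chain, had 3476 CPM in CTL persister cells and 616 CPM in parental cells, a ratio of 5.64. CIITA had 95.6 CPM in CTL persister cells and 11.8 CPM in parental cells, a ratio of 8.11. Parental cells thus held CD74 at a level readily counted while CTSS was at 0.499 CPM. HLA-DQA1 had the largest ratio of the measured class II genes at 26.0, with 139.2 CPM in CTL persister cells and 5.35 CPM in parental cells. HLA genes resemble each other, so their counts depend on how shared reads were assigned. LGMN and IFI30 belong to both the class II list and the hydrolase list.

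In the interferon-gamma list all 28 measured genes were past 2-fold upward in CTL persister cells, with a median log2 difference of 3.28. This list holds the best-known targets of the cytokine. IRF1, a transcription factor of that response, had 946.7 CPM in CTL persister cells and 17.0 CPM in parental cells. GBP1, a guanylate-binding GTPase, had 159.5 CPM in CTL persister cells and 2.42 CPM in parental cells. The ratio was 55.7 for IRF1, 66.0 for GBP1 and 157 for GBP4, against 517 for CTSS. GBP5, another guanylate-binding GTPase, had 2355 UMIs in CTL persister cells and 0 UMIs in parental cells, at least 870-fold higher against 3 UMIs in the parental library, which is beyond the ratio of CTSS. GBP4 and GBP5 were added after their values were seen. In the S phase list 16 of 20 measured genes were past 2-fold downward, and in the G2 and M phase list 12 of 20.

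Within 250 kb of CTSS on chromosome 1 the annotation places 15 protein-coding genes, of which 9 reached 5 CPM, 2 of them past 2-fold upward and 1 downward. Over all 9938 genes of that level, 10.1% were past 2-fold upward and 10.8% downward, so nothing is read from this count. MCL1, the anti-apoptotic BCL2 family gene, had 302.2 CPM in CTL persister cells and 64.9 CPM in parental cells, 4.66-fold higher (4.52 to 4.79). ECM1 had 17.1 CPM in CTL persister cells and 6.89 CPM in parental cells, 2.49-fold higher. PRUNE1 had 4.60 CPM in CTL persister cells and 10.1 CPM in parental cells, a ratio of 0.454. The genes flanking CTSS at the shortest distances were HORMAD1, with 17 UMIs in CTL persister cells and 1 UMI in parental cells, a ratio of 18.8 (2.95 to 787), and CTSK, at chr1:150796208-150808323. CTSK lies 30251 bases from CTSS on the same strand and had the opposite direction of difference.

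Cells differ in depth, so shares of cells were counted at 1 depth, by drawing 5000 UMIs from every cell that had that many (thinning). This used 5897 CTL persister and 9094 parental cells and left out 708 and 1536 shallower ones. At that depth CTSS was seen in 3963 CTL persister cells, or 67.2% (66.0 to 68.4, Clopper-Pearson), and in 20 parental cells, or 0.220% (0.134 to 0.339). Without thinning the share was 84.8% of CTL persister cells and 0.395% of parental cells. In CTL persister cells of at least 10000 UMIs thinned to that depth, the share was 84.1%. The share was thus higher at greater depth, and cells without a CTSS UMI are not shown to lack CTSS.

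CTSS counts per cell were spread out beyond a Poisson distribution of the same mean. At 5000 UMIs, 32.8% of CTL persister cells had 0 CTSS UMIs, against 25.7% for a Poisson distribution of that mean, 30.3% had 1, 18.9% had 2, and 3.27% had 5 or more, with 10 the highest count. The variance over the mean was 1.44 for CTSS in CTL persister cells. It was 1.85 for CTSL in CTL persister cells and 1.06 in parental cells, and 1.85 for CTSC in CTL persister cells and 1.21 in parental cells. CTSC therefore had nearly the same mean in both libraries and a wider spread between CTL persister cells. CTSC was seen in 70.5% of CTL persister cells and 76.7% of parental cells, while 6.78% of CTL persister cells and 3.53% of parental cells had 5 or more CTSC UMIs.

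**Figure D2:**
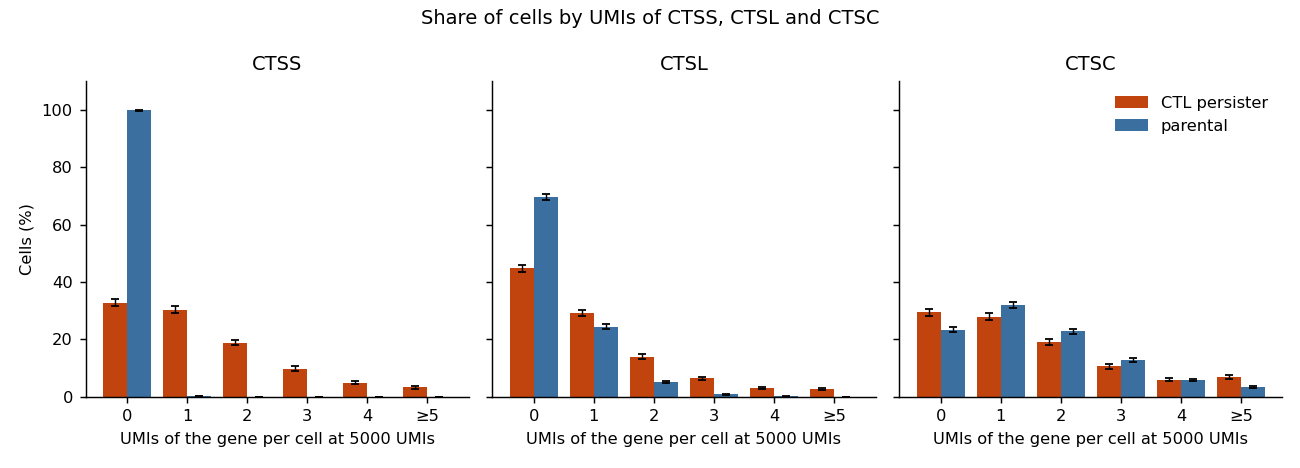
Share of cells, in percent, by the number of UMIs of CTSS, CTSL and CTSC per cell after thinning to 5000 UMIs, with CTL persister bars left of parental bars and exact 95% binomial intervals. Nearly all parental cells have 0 CTSS UMIs, and CTSC is spread wider over CTL persister cells, with 29.5% at 0 and 6.78% at 5 or more, than over parental cells, with 23.3% and 3.53%.

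The other members followed their levels. CTSL was seen in 55.3% of CTL persister cells and 30.4% of parental cells, and CTSZ in 37.8% and 59.1%. CTSD was seen in 25.7% of CTL persister cells and 21.4% of parental cells, CTSB in 21.5% and 17.0%, and CTSA in 18.6% and 19.5%. CTSO, CTSH and CTSK were each seen in under 5% of cells of either library, CTSO in 2.49% of CTL persister cells and 0.264% of parental cells.

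The 42 parental cells with a CTSS UMI before thinning were examined because they bear on whether CTSS was off. Of these, 41 had 1 UMI and 1 had 3, and none carried a barcode seen in both libraries. Their median depth was 9797 UMIs, against 7586 UMIs in parental cells without CTSS. Their MHC class II list summed to 1034 CPM, against 1297 CPM in parental cells without CTSS, and their interferon-gamma response list to 1392 CPM, against 1218 CPM. CTSL was 73.5 CPM in the 42 cells and 73.8 CPM in the others, and CTSB was 16.6 CPM from 7 UMIs and 37.9 CPM. The T cell and cytotoxic list was 21.3 CPM in the 42 cells and 4.20 CPM in the others, a ratio of 5.08 (2.31 to 9.76), and its part in their CTSS was not tested. Free RNA as the source of the single CTSS UMIs was not tested.

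Cytotoxic T cells can be left in a coculture and express cathepsins, so CTSS was read against 6 T cell markers, CD2, CD3D, CD3E, CD52, PTPRC and TRAC. In the 6182 CTL persister cells with none of the 6, CTSS was 262.0 CPM (258.3 to 265.7), as high as in all cells. It was 215.0 CPM (203.6 to 226.8) in 413 cells with 1 marker and 234.3 CPM (131.1 to 386.4) in 10 cells with 2. The 162 barcodes with 3 or more markers had 169.6 CPM (143.1 to 199.5). They were left out of the comparison of the libraries and put back only in an alternative cell filter. In those 162 barcodes 31.5% had a CTSS UMI at a median of 3568 UMIs per barcode, against 84.8% of the cells kept at a median of 11284 UMIs. Restricted to barcodes of at least 5000 UMIs, CTSS was 240.1 CPM (199.7 to 286.3) in the 45 barcodes with 3 or more markers and 259.0 CPM in cells with 0. At that depth the tumour gene MIA was 639.1 CPM in the barcodes with 3 or more markers and 1077 CPM in cells with 0, SERPINE2 was 582.9 CPM and 1154 CPM, and SOX10 was 133.6 CPM and 181.5 CPM. The interval of CTSS in these 45 barcodes included its level in cells with 0 markers. The intervals of MIA (572.0 to 711.9), SERPINE2 (518.9 to 652.7) and SOX10 (104.0 to 169.1, from 69 UMIs) lay below theirs. Whether CTSS and SOX10 differed in their distance from cells with 0 markers was not tested. The part of T cells in the CTSS of these barcodes was not tested.

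In the 162 barcodes CTSS stood at 65.6% of its level in the cells kept (55.4 to 77.3). The tumour genes SOX10, MIA and SERPINE2 stood there at 53.5%, 41.3% and 33.9% of theirs, CTSL at 50.4%, CTSZ at 49.1%, CTSC at 72.8% and CTSA at 85.5%. The interval of CTSS lay above those of MIA (37.2 to 45.7) and SERPINE2 (30.3 to 37.7) and overlapped that of SOX10 (42.5 to 66.5). CTSB stood at 129.7% (97.3 to 169.6) and CTSD at 126.3% (97.3 to 161.3). RNA of tumour cells was thus present in these barcodes, and its part in their CTSS was not tested. CTSH was far higher, with 30.4 CPM in the 162 barcodes against 2.92 CPM in the cells kept. CTSW had 240.9 CPM there against 1.85 CPM, and CST7, cystatin F, an inhibitor made by T and natural killer cells that acts on cathepsin C, had 156.7 CPM against 0.918 CPM. The T cell and cytotoxic list of 20 genes summed to 14.9 CPM in the CTL persister cells kept and 4.28 CPM in parental cells, with 0 of 20 genes at 5 CPM.

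**Figure D3:**
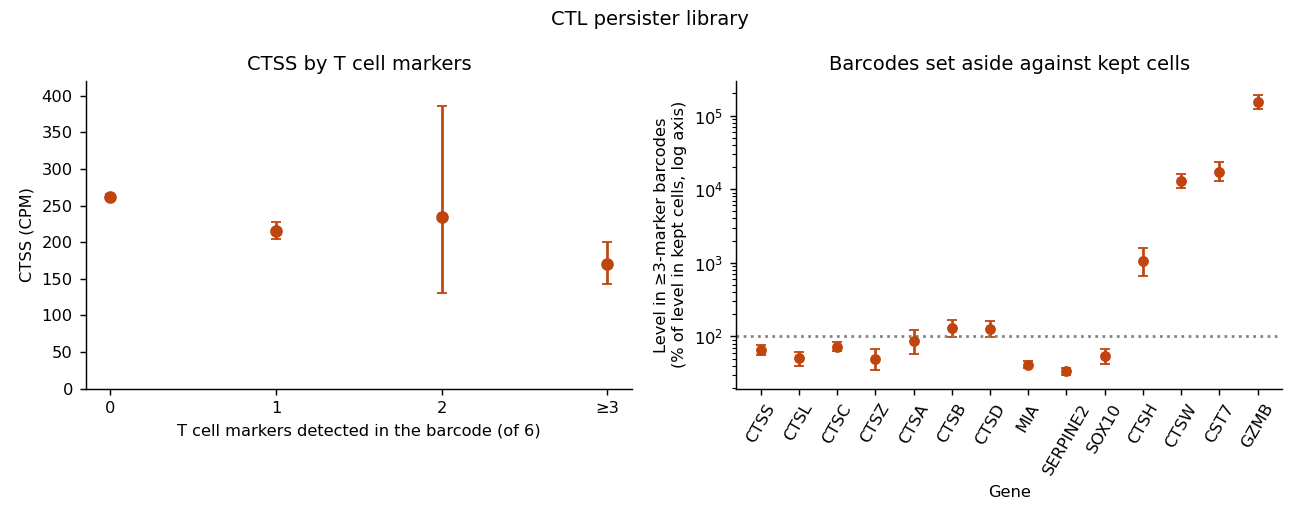
Left, CTSS in CPM in CTL persister barcodes by the number of 6 T cell markers detected. Right, level of each gene in the 162 barcodes with 3 or more markers as a percent of its level in the cells kept, on a log axis; bars are exact 95% intervals, and CTSS lies at 65.6%, CTSB and CTSD lie above 100% with intervals that include it, and CTSH, CTSW, CST7 and GZMB lie above 1000%.

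Cells of the myeloid line express CTSS strongly. Of 14 myeloid markers, TYROBP, C1QA, C1QB and MS4A7 had 0 UMIs in CTL persister cells, CD14 had 1 UMI and CSF1R had 3. In parental cells 5 of the 14 had 0 UMIs. Only 2 of the 14 reached 5 CPM in either library, and 1 of these, FCER1G, was past 2-fold upward in CTL persister cells. Over all genes measured 10.1% were past it upward. The markers not named here enter through the list sum alone. The myeloid list summed to 27.1 CPM in CTL persister cells and 12.3 CPM in parental cells, most of it FCER1G, with 14.0 CPM and 0.874 CPM, and the lysosomal gene CD68, with 10.6 CPM and 7.41 CPM. The 5 B cell markers summed to 0.314 CPM in CTL persister cells and 0.522 CPM in parental cells.

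Within the CTL persister library the 3963 cells with a CTSS UMI at 5000 UMIs were set beside the 1934 cells without one. Cells of 1 library are not replicates, so these are levels in 2 sets of cells, without a test. CTSL was 231.0 CPM (224.3 to 237.8) in cells with CTSS and 168.3 CPM (160.2 to 176.6) in cells without, a ratio of 1.37. CTSD was 67.3 CPM in cells with CTSS and 54.7 CPM in cells without, and CTSA was 44.3 CPM and 37.3 CPM. CTSL, CTSD and CTSA were thus higher where CTSS was seen, by ratios of 1.37, 1.23 and 1.19. CTSB was 51.7 CPM in cells with CTSS and 46.7 CPM in cells without, with an interval of the ratio of 0.990 to 1.24. CTSZ was 102.65 CPM in cells with CTSS and 102.59 CPM in cells without, a ratio of 1.00 (0.927 to 1.08). CTSC ran the other way from CTSL, with 313.6 CPM in cells with CTSS and 358.7 CPM in cells without, a ratio of 0.874 (0.838 to 0.912). CTSO, with 116 UMIs in cells with CTSS and 34 UMIs in cells without, had a ratio of 1.66 (1.13 to 2.52). CTSH had 64 UMIs in cells with CTSS and 19 UMIs in cells without, a ratio of 1.64 (0.972 to 2.91), and CTSK had 19 UMIs and 11 UMIs.

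The CTSS-bearing cells had a median of 11671 UMIs before thinning, against 12476.5 UMIs in cells without CTSS. Without thinning, the cells with CTSS had a median of 12185 UMIs and those without 10074 UMIs. Across 9422 genes of at least 5 CPM in either set, 0.149% were past 2-fold upward in cells with CTSS and 0.0106% downward, which is 14 genes and 1 gene. The 14 included LCE1E, a cornified envelope gene, with 111.2 CPM in cells with CTSS and 36.1 CPM in cells without, the interferon-stimulated gene IFIT1, with 8.07 CPM and 2.59 CPM, and the phosphatase PTPRZ1, with 94.1 CPM and 39.6 CPM. These 3 were picked as examples after their values were seen. None of the 9 other members was among the 15 genes.

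The class II genes differed little between cells with and without CTSS. The class II list summed to 5794 CPM in cells with CTSS and 5356 CPM in cells without, a ratio of 1.08 (1.07 to 1.09). CD74 was 3677 CPM in cells with CTSS and 3319 CPM in cells without, a ratio of 1.11, and CIITA was 96.6 CPM and 99.3 CPM, a ratio of 0.973 (0.900 to 1.05). The interferon-gamma list had a ratio of 1.11 (1.10 to 1.12) and the lysosomal hydrolases a ratio of 1.16 (1.12 to 1.20). The S phase list was lower where CTSS was seen, with 639 CPM in cells with CTSS and 828 CPM in cells without, a ratio of 0.771. The G2 and M phase list had a ratio of 1.01, and 1.29 without thinning, and the integrated stress response list one of 0.988. The myeloid list was 29.6 CPM in cells with CTSS and 20.5 CPM in cells without, and its part in these ratios was not tested.

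**Figure D4:**
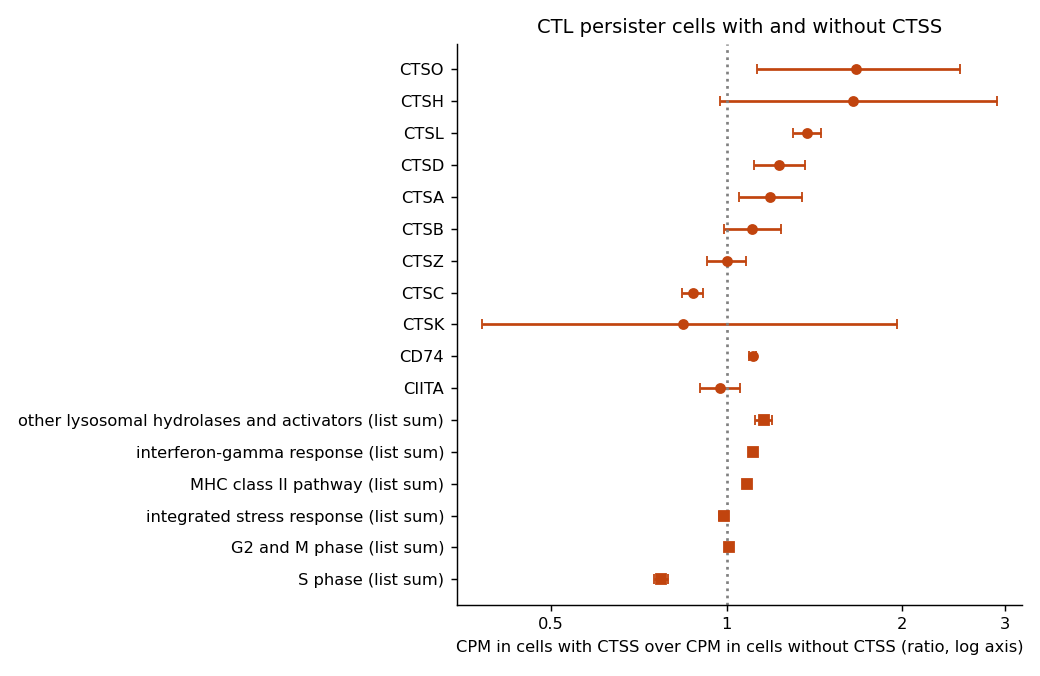
Ratio of CPM in CTL persister cells with a CTSS UMI over cells without one, both thinned to 5000 UMIs, on a log axis, for 9 cathepsins, CD74, CIITA and 6 list sums, with exact 95% intervals. CTSL lies at 1.37, CTSZ at 1.00, CTSC at 0.874 and the S phase list at 0.771.

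The same cells were also ordered by the summed UMIs of each list. Those at or above the upper quartile of the sum are called high cells and those at or below the lower quartile low cells. Among CTL persister cells, CTSS was 356.3 CPM (343.0 to 370.1) in the 1507 high cells of the interferon-gamma list and 182.1 CPM (172.8 to 191.7) in the 1584 low cells, a ratio of 1.96. CTSL was 277.9 CPM in high cells and 136.7 CPM in low cells, a ratio of 2.03 (1.89 to 2.19), CTSD had a ratio of 1.89 and CTSA one of 1.61. CTSC was 291.4 CPM in high cells and 386.5 CPM in low cells, a ratio of 0.754 (0.714 to 0.797). CTSL and CTSS thus behaved alike along this list and CTSC in the opposite way. High CTL persister cells had 80 or more UMIs of the list and low ones 58 or fewer. High parental cells had 8 or more and low ones 4 or fewer, so parental cells were sorted on few UMIs and their ratios are not compared with those of CTL persister cells. In the parental library the ratio was 1.07 for CTSL, 1.01 for CTSC, 1.14 for CTSD and 1.00 for CTSA.

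Ordered by the MHC class II list, CTL persister cells had 310.6 CPM of CTSS in high cells and 235.1 CPM in low cells, a ratio of 1.32 (1.24 to 1.40). CTSZ had the largest ratio of the members along this list, with 138.3 CPM in high cells and 66.7 CPM in low cells, 2.07 (1.87 to 2.30), followed by CTSD at 1.90 and CTSA at 1.88. CTSZ, lower in CTL persister cells than in parental cells, was thus higher in the CTL persister cells high in this list than in those low in it. CD74 alone gave 3476 of the 5494 CPM of the list in the CTL persister library, so cells were sorted largely on CD74. In parental cells, sorted at 9 and 4 UMIs of this list against 35 and 21 UMIs in CTL persister cells, the CTSZ ratio was 1.24 (1.18 to 1.31). Ordered by the S phase list, CTSS was 212.5 CPM in high CTL persister cells and 314.2 CPM in low cells, a ratio of 0.676 (0.638 to 0.716), and CTSC was 363.1 CPM and 291.9 CPM, a ratio of 1.24. These high cells had 5 or more UMIs of the S phase list and the low cells 1 or fewer, so they were sorted on few UMIs. For the G2 and M phase list the cut-offs were 14 or more and 1 or fewer. Along the G2 and M phase list CTSS was 257.7 CPM in high CTL persister cells and 310.8 CPM in low cells, a ratio of 0.829 (0.782 to 0.879), and along the integrated stress response list the ratio was 0.927 (0.875 to 0.983).

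**Figure D5:**
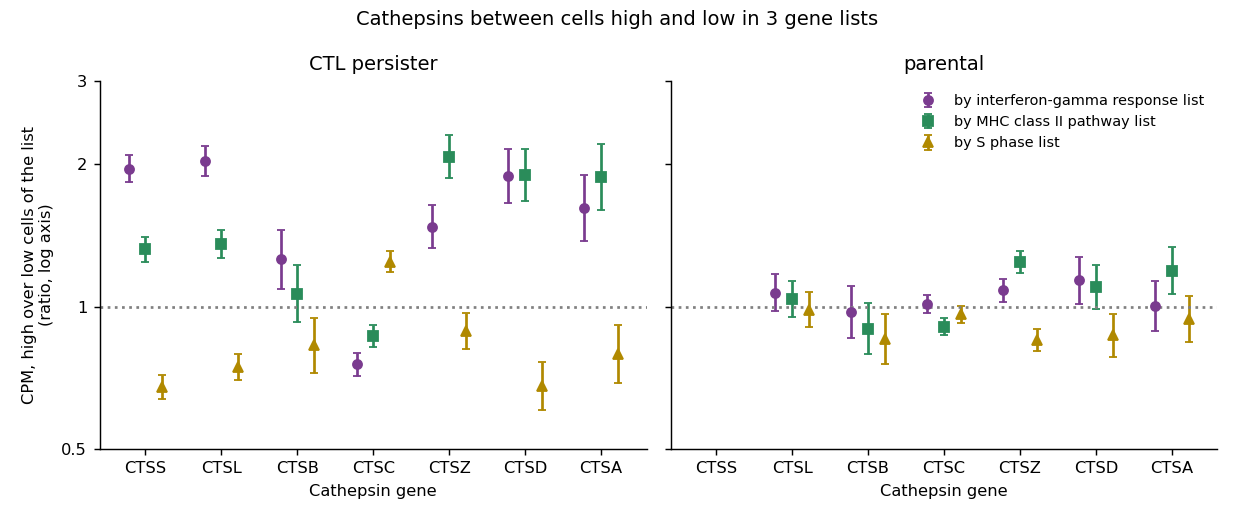
Ratio of CPM in high over low cells of the interferon-gamma, MHC class II or S phase list, on a log axis, for 7 cathepsins in CTL persister cells (left) and parental cells (right), with exact 95% intervals. CTSS in parental cells is not drawn because of its few UMIs. In CTL persister cells CTSS and CTSL lie near 2 along the interferon-gamma list, and parental cells were sorted on fewer UMIs of the interferon-gamma and MHC class II lists. CTL persister cells were sorted on few UMIs of the S phase list, 5 or more against 1 or fewer.

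The genes whose UMIs per cell ran most like those of CTSS were ranked by Pearson correlation of log1p UMIs over 5897 CTL persister cells thinned to 5000 UMIs, among 7274 genes seen in at least 5% of them. The highest included TIMP1 (r = 0.23), PTPRZ1 (r = 0.21), HLA-B (r = 0.20), TFPI2 (r = 0.20), TMSB10 (r = 0.19), B2M (r = 0.19), NEAT1 (r = 0.19), SQSTM1 (r = 0.18) and ITGB8 (r = 0.18). Counts are sparse and all cells share 1 library and 1 depth, so such weak correlations only describe the order. CTSL held rank 14 of the 7274 with r = 0.15, CD74 rank 22 with r = 0.13, CTSD rank 250, CIITA rank 5268 with r = −0.02 and CTSC rank 7156 with r = −0.09.

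Promoter sequences matched 6 of the 10 members in the RefSeq table (GRCh38.p14), which holds 250 bases before and 50 after each gene start. Shown are the 250 bases before the RefSeq start of CTSL, CTSD and CTSA, members that were higher in CTL persister cells with CTSS and have an entry in that table, chosen after their values were seen. CTSO was higher there too and is not shown because it was not among the 6 matched. CTSH was among the 6 matched and is not shown either. Its ratio there was 1.64, with an interval that reached below 1. GENCODE release 29, the source of the other gene positions here, places the outer ends of these genes further out, at position 87725519 for CTSL, 1764573 for CTSD and 45890144 for CTSA. By that annotation all 3 windows lie within the genes. Letters searched on both strands were CACGTG, the core of the lysosomal gene element bound by TFEB and its relatives, GAAANN followed by GAAA, a core of interferon-stimulated response elements, TTCNNNGAA, the palindrome bound by STAT dimers, and TGANTCA, bound by AP-1. Capitals mark every match. The windows are chr9:87725869-87726118 on the plus strand for CTSL, chr11:1763928-1764177 on the minus strand for CTSD and chr20:45891085-45891334 on the plus strand for CTSA.
CTSL: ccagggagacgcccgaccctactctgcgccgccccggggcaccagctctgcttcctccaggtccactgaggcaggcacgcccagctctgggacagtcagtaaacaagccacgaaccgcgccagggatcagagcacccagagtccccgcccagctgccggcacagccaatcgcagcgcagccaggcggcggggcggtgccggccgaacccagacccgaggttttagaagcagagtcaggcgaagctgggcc
CTSD: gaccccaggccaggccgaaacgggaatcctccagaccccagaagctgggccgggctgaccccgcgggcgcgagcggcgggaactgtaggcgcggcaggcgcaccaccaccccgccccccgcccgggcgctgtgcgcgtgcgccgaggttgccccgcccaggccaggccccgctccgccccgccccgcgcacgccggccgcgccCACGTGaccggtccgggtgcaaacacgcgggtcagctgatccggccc
CTSA: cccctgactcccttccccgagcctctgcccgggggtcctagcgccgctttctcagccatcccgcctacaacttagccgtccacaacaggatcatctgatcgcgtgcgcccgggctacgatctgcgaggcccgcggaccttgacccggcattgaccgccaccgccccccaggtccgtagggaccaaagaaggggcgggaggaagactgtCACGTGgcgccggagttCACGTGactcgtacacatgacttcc
CTSD held 1 CACGTG and CTSA 2, and CTSL held none of the 4 motifs. CACGTG was found in 7.26% of 35116 promoter windows, the interferon element core in 3.57%, TTCNNNGAA in 7.66% and TGANTCA in 7.71%. These shares are over the full 300-base windows, which include the 50 bases after each start that are not printed here. In the 300-base windows of CTSC, CTSH and CTSZ no match to any of the 4 was found. A match is no binding site, and a missing match says only that these letters are not in this window.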

How the data were processed

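The deposited matrices hold raw UMI counts, 1 whole number for each gene in each barcode, per the file headers. The submitters' processing notes name Cell Ranger 3.1.0 and, as genome build, GRCh38. Which annotation release was used for counting was not given in the sources used here. Per the labels, the kit reads transcript 3′ ends, so levels are not compared between genes. The members and lists were chosen with earlier results of these data known.

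A barcode entered the comparison with 500 or more genes, 1000 or more UMIs and no more than 20% of UMIs from mitochondrial genes, which kept 6767 of 7144 CTL persister and 10630 of 10751 parental barcodes. Barcodes with 3 or more of 6 T cell markers were then set aside, 162 in the CTL persister library and 0 in the parental library. No doublet caller was run. UMIs were summed per library and scaled to CPM. Intervals are exact Poisson, Clopper-Pearson and conditional binomial intervals at 95%. Genes of at least 5 CPM in either library were counted past a 2-fold ratio, and log2 values used a pseudocount of 1 CPM.

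Alternatives were TMM scaling (edgeR 4.0.16), median-of-ratios scaling (DESeq2 1.42.0), other cell filters, thinning depths and level filters.

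Named genes were all cathepsins, up to 3 genes of each list with the largest log2 difference among those of at least 5 CPM, the 10 genes most correlated with CTSS, 1 of which is not reported here, and protein-coding genes within 250 kb of CTSS. CD74, CSTA, GBP4, GBP5, IFIT1, LCE1E and the marker genes were added for their role or after their values were seen. GENCODE release 29 matched 33456 of the 33538 gene identifiers and gave positions. Whether counting used strand is not stated.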

Additional observations from a re-analysis of the deposited data

Results flagged for a closer look

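CTSS was also found in barcodes that the main comparison left out. In the 377 CTL persister barcodes outside the depth and mitochondrial limits, with a median of 857 UMIs, CTSS was 308.8 CPM (256.9 to 368.2) from 124 UMIs. In the 121 parental barcodes outside the same limits, with a median of 839 UMIs, CTSS had 0 UMIs, with an interval up to 35.8 CPM, and 3 UMIs there correspond to 29.1 CPM. CTSL was 236.6 CPM in these CTL persister barcodes and 77.7 CPM in these parental barcodes. The T cell marker rule was not applied to either set. In the 377 barcodes GZMB was 303.8 CPM, CTSW 22.4 CPM and CST7 17.4 CPM, against 1.21, 1.85 and 0.918 CPM in the cells kept. The tumour genes MIA, SERPINE2 and SOX10 were 490.6, 1123 and 99.6 CPM there, against 1064, 1160 and 179 CPM. The part of T cells in the CTSS of these barcodes was not tested.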

How the results depend on the processing

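Over 9 alternatives the CTSS ratio ranged from 515 to 617, and each of the other members but CTSA kept its direction in all 9. CTSA, at 0.949, turned to 1.03 with TMM scaling and was above 1 in 2 of the 9. CTSL ranged from 2.68 to 2.93. Members at least 2-fold higher numbered 2 as reported and 3 when every gene with a UMI was counted or cells were thinned to 5000 UMIs, with CTSO as the addition. Members at least 2-fold lower numbered 1 as reported, 2 when every gene with a UMI was counted, with CTSK added, and 2 with the stricter cell filter (1000 genes, 2000 UMIs, 10% mitochondrially encoded UMIs), with CTSZ added. TMM scaling gave 1151 genes higher and 808 lower, against 1001 and 1070 as reported, and moved the median log2 difference of all genes to −0.03 from −0.15. Leaving out barcodes seen in both libraries, an alternative chosen after seeing the data, gave 516 for CTSS.

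The share of CTL persister cells with CTSS was 67.2% at 5000 UMIs, 84.8% unthinned, 39.0% at 2000 UMIs and 84.1% at 10000 UMIs. The ratio of the MHC class II list between CTL persister cells with and without CTSS was 1.08 as reported, 1.09 unthinned, 1.15 at 10000 UMIs and 1.11 with 2 or more CTSS UMIs against 0. CTSL ranged from 1.37 to 1.55 in that comparison, CTSC from 0.828 to 0.902 and CTSZ from 0.984 to 1.20. CTSK, at 0.843 from 30 UMIs, was above 1 in the other 4 settings, up to 1.66. The cause of these shifts was not tested. With 1 library per group, leaving out a replicate was not possible. No paired analysis was possible because each group has 1 sample.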
